A study of Mus musculus with 4 samples.

Results

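The 10 genes described here mark inhibitory interneurons of the hippocampus and the GABA that these cells make. They are the GABA synthesis genes Gad1 and Gad2, the vesicular GABA transporter gene Slc32a1, the neuropeptide genes Sst, Npy, Vip and Cck, the calcium-binding protein genes Pvalb and Calb2, and Reln, which encodes the secreted glycoprotein reelin. They are named by symbol among the 22609 gene symbols counted in each library. Expression was measured by RNA-Seq in 4 hippocampus libraries of ovariectomized females, with 2 libraries of the FLOX+GCI group and 2 of the FBN-ARO-KO+GCI group. The FBN-ARO-KO mice carry a Cyp19a1 Cre/LoxP conditional knockout, with Cre under the CaMKIIα promoter, which is active in forebrain excitatory neurons, and the FLOX mice are their controls. All mice were between 3 and 5 months old, had both ovaries removed 1 week before surgery, and underwent global cerebral ischemia (GCI) by 20 min of common carotid artery occlusion with 24 h of reperfusion. No sham library was analyzed, so the values compare genotypes after ischemia only.

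Interneurons are the minority of hippocampal neurons that release GABA, the main inhibitory transmitter of the brain. The 2 forms of glutamate decarboxylase encoded by Gad1 and Gad2 make GABA from glutamate, and the transporter encoded by Slc32a1 loads it into synaptic vesicles. Parvalbumin marks fast-spiking basket and axo-axonic cells, somatostatin marks cells that contact pyramidal cell dendrites, and vasoactive intestinal peptide (VIP), cholecystokinin and calretinin (encoded by Calb2) mark further classes. Several of these genes are not confined to interneurons in the hippocampus. Cck is also expressed by pyramidal cells, Calb2 by mossy cells of the mouse hilus, Reln by Cajal-Retzius cells, and Npy can appear in granule cells after intense activity. In whole tissue, fewer cells of a type and less RNA per cell cannot be told apart.

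The counts on genes ranged from 24333396 to 33076795 per library, so 3 counts, the limit that a count of 0 allows by counting error alone, stood for 0.0907 to 0.123 CPM (counts scaled to a common library size). Cyp19a1, the gene deleted in forebrain neurons, had 4 and 1 counts in the FLOX+GCI libraries and 2 and 2 counts in the FBN-ARO-KO+GCI libraries, too few to check the genotypes. Nothing in the labels says whether the libraries of a group came from separate mice, and the series text says that samples were run in duplicate, so p-values here measure the spread between libraries, which may be technical. Across 14004 tested genes, transcripts richer in GC had lower log2 ratios between genotypes (Spearman's rho of -0.55), so values with a GC and length trend removed are given for the 10 genes and most other named genes. All 10 genes passed the filter on low counts, and their counts ranged from 741 to 12707 per library.

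Slc32a1, Sst, Npy and Cck had a lower CPM in both FBN-ARO-KO+GCI libraries than in both FLOX+GCI libraries, by between 0.709-fold for Npy and 0.878-fold for Cck. The other 6 genes, Gad1, Gad2, Pvalb, Vip, Calb2 and Reln, overlapped between genotypes. Groups that do not overlap, with FBN-ARO-KO+GCI lower, made up 25.8% of all 14527 genes tested and 4 of these 10, and 51.8% of all genes did not overlap in either direction. The same 4 genes had an unadjusted p under 0.05 in the quasi-likelihood test of edgeR, which held for 16.5% of all genes tested in either direction and for 7.82% with FBN-ARO-KO+GCI lower. With Benjamini-Hochberg adjustment over all genes, 0 of the 10 passed 0.05 (smallest adjusted p = 0.238), against 0.0138% of all genes. DESeq2 put 2 of the 10, Sst and Npy, under an adjusted p of 0.05 (4.92% of the 5796 genes to which it gave an adjusted p), and the likelihood ratio test of edgeR put 1, Sst, under it (2.02% of all genes). The median log2 fold change of the 10 genes was -0.06, against -0.01 for all genes tested.

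**Figure D1:**
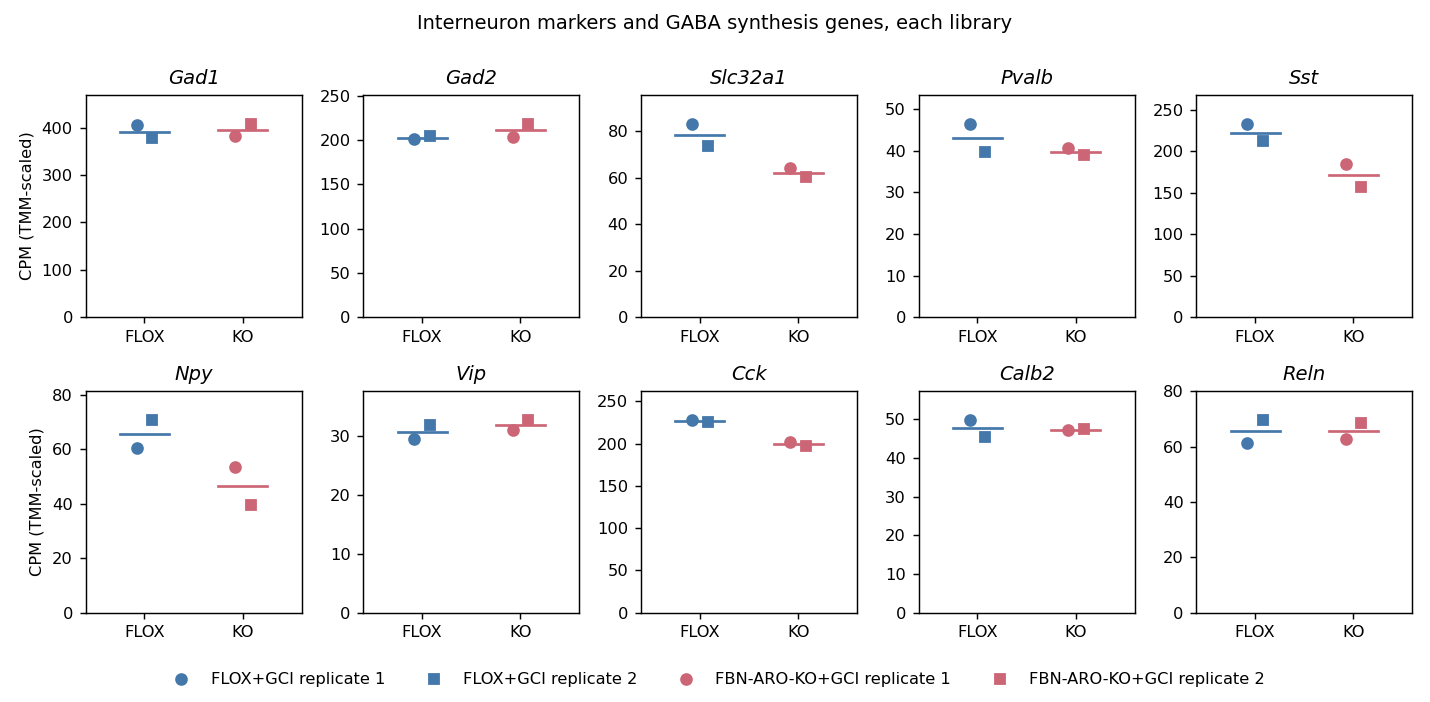
CPM scaled by TMM of the 10 genes in each of the 4 libraries, with 1 panel per gene and a vertical axis that starts at 0. Circles are replicate 1 and squares replicate 2, the horizontal line is the mean of a genotype (FLOX for FLOX+GCI, KO for FBN-ARO-KO+GCI), and the genotypes are apart for Slc32a1, Sst, Npy and Cck and overlap for the other 6 genes.

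Per kilobase of the longest annotated transcript, Sst and Cck were the most abundant of the 10 and Reln the least. Sst lay between 262 and 388 RPKM (CPM per kilobase), and Cck between 247 and 286 RPKM. Although Sst was above Cck within each of the 4 libraries, the ranges over libraries overlapped. Next came Gad1, between 112 and 121 RPKM, and Npy, between 69.8 and 125 RPKM. Their ranges overlapped, with Gad1 above Npy in 3 of the 4 libraries. Pvalb (39.9 to 47.5 RPKM), Gad2 (35.0 to 38.0 RPKM), Calb2 (31.7 to 34.9 RPKM), Slc32a1 (21.5 to 29.7 RPKM), Vip (19.4 to 21.5 RPKM) and Reln (5.25 to 5.96 RPKM) followed, each above the next in all 4 libraries and, over all libraries, without overlap. The place of Gad1 depends on its transcript model. Its longest coding transcript has 3355 bases and the union of its exons 7639 bases, and per kilobase of the union its mean was 51.5 RPKM in place of 117 RPKM.

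Gad1, on chromosome 2 of mm9 from 70391129 to 70440071, encodes GAD67, the form that makes most of the GABA of the brain. It had 405 and 377 CPM in FLOX+GCI replicates 1 and 2, and 383 and 407 CPM in FBN-ARO-KO+GCI replicates 1 and 2. The highest and the lowest library were thus in different genotypes and the ranges coincided almost fully. Its log2 fold change (FBN-ARO-KO+GCI against FLOX+GCI) was 0.01 (standard error, SE, 0.07, 95% interval from -0.16 to 0.19, adjusted p = 0.932, edgeR quasi-likelihood), an interval of 0.895- to 1.14-fold.

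Gad2, on chromosome 2 from 22477725 to 22549394, encodes GAD65, which is concentrated at nerve terminals. The FLOX+GCI libraries had 201 and 205 CPM and the FBN-ARO-KO+GCI libraries 204 and 218 CPM. The genotypes overlapped, with the highest value in FBN-ARO-KO+GCI replicate 2. Its log2 fold change was 0.06 (95% interval from -0.11 to 0.22, adjusted p = 0.704 by edgeR). Within each library, Gad2 stood at 0.495 and 0.543 of the CPM of Gad1 in FLOX+GCI and at 0.532 and 0.536 in FBN-ARO-KO+GCI, so the balance of the synthesis genes overlapped between genotypes as well.

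Slc32a1, on chromosome 2 from 158436494 to 158441484, encodes VGAT, the transporter that fills inhibitory vesicles with GABA and glycine. It had 83.1 and 73.6 CPM in the FLOX+GCI libraries and 64.1 and 60.1 CPM in the FBN-ARO-KO+GCI libraries. Both FBN-ARO-KO+GCI libraries were below both FLOX+GCI libraries. Its fold change was 0.793 (95% interval from 0.685 to 0.918, adjusted p = 0.238 and unadjusted p = 0.00693, edgeR quasi-likelihood). DESeq2 gave an adjusted p of 0.0634. The log2 fold change was -0.24 without FLOX+GCI replicate 1 and -0.42 without FLOX+GCI replicate 2. Relative to Gad1 within the same library, Slc32a1 stood at 0.205 and 0.195 in FLOX+GCI and at 0.167 and 0.147 in FBN-ARO-KO+GCI. This ratio does not depend on how libraries are scaled to each other, and its genotypes did not overlap (exact two-sided permutation test, p = 0.333, the smallest that 2 libraries against 2 can give). Slc32a1 has the highest transcript GC content of the 10 genes (61.9%), and its log2 fold change moved from -0.33 to -0.06 (95% interval from -0.23 to 0.11) once the GC and length trend of each library was removed. The noncoding gene Gm14205 overlaps 697 bases of its exons on the opposite strand, and reads of the pair cannot be told apart where the counting ignored strand, whose setting is not given in the sources used here.

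The 4 neuropeptide genes are made as precursors that are cut and packed into dense-core vesicles, and transcription of several is known to respond to cAMP through the element TGACGTCA, which the factor CREB binds. The 100 bases before the RefSeq start site of each are shown because these genes fall on both sides of the result, with Sst, Npy and Cck lower in FBN-ARO-KO+GCI and Vip overlapping. Capitals mark the half-site TGACG or its reverse complement CGTCA, which within the full element overlap. The sequences are from RefSeq, read 5′ to 3′ on the strand of the gene, and were placed in mm9 by an exact match at chr16:23890931-23891030 for Sst (minus strand), chr6:49772609-49772708 for Npy (plus strand), chr9:121404813-121404912 for Cck (minus strand) and chr10:4707324-4707423 for Vip (minus strand).
Sst: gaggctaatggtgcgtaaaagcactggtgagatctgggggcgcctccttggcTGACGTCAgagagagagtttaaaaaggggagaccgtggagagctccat
Npy: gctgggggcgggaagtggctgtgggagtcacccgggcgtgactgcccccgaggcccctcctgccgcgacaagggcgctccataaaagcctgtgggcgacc
Cck: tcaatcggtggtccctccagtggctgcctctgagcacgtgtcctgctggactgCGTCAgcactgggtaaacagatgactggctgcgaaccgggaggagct
Vip: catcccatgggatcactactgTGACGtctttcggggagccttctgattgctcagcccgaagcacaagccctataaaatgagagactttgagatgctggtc

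Within 250 bases before the start site, on both strands, the full element TGACGTCA was found in the Sst promoter and in none of the other promoters of these genes, and it is in 1.55% of the 32851 promoters of the RefSeq table (GRCm38.p6). The half-site was found for Sst, Cck, Vip and Gad2, and is in 17.8% of all promoters. A promoter was matched for 9 of the 10 genes, Calb2 being the other. The half-site occurred before genes that were lower in FBN-ARO-KO+GCI (Sst, Cck) and before genes that overlapped (Vip, Gad2), while the Npy window held none. Whether the element or its half-site bears on these levels was not tested.

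Sst, on chromosome 16 from 23889667 to 23890930, encodes somatostatin, an inhibitory peptide of dendrite-targeting interneurons. It had 233 and 212 CPM in the FLOX+GCI libraries and 185 and 157 CPM in the FBN-ARO-KO+GCI libraries. The genotypes did not overlap, and FBN-ARO-KO+GCI replicate 2 was lowest. Its fold change was 0.769 (95% interval from 0.657 to 0.902), a log2 fold change of -0.38 (SE 0.10, adjusted p = 0.238, edgeR quasi-likelihood). The adjusted p was 0.0175 with DESeq2 and 0.0404 with the likelihood ratio test of edgeR. With the GC and length trend removed, the log2 fold change was -0.13 (95% interval from -0.30 to 0.05, adjusted p = 0.560, edgeR quasi-likelihood).

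Npy, on chromosome 6 from 49772709 to 49779506, encodes neuropeptide Y, which dampens glutamate release and rises after seizures and ischemia. It had 60.3 and 70.9 CPM in the FLOX+GCI libraries and 53.4 and 39.5 CPM in the FBN-ARO-KO+GCI libraries. All FBN-ARO-KO+GCI values lay below all FLOX+GCI values, and within each genotype the libraries differed more, relative to their mean, than for the other neuropeptide genes. Of the 10 genes it had the largest difference, at 0.709-fold (95% interval from 0.556 to 0.905) or a log2 fold change of -0.50 (SE 0.15, adjusted p = 0.245, edgeR quasi-likelihood, 0.0355 with DESeq2). Without FBN-ARO-KO+GCI replicate 2 it was -0.29. Npy was the only one of the 10 whose 95% interval stayed below 0 with the GC and length trend removed (log2 fold change -0.32, from -0.61 to -0.03, unadjusted p = 0.0354 and adjusted p = 0.410 by edgeR), where 11.4% of all genes had an unadjusted p under 0.05.

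Cck, on chromosome 9 from 121398943 to 121404807, encodes cholecystokinin, found in a class of basket cells and in pyramidal cells. The FLOX+GCI libraries had 228 and 226 CPM and the FBN-ARO-KO+GCI libraries 202 and 197 CPM. Libraries of a genotype lay close together and the genotypes did not overlap. The fold change was 0.878 (95% interval from 0.788 to 0.979, adjusted p = 0.255, edgeR quasi-likelihood). With the GC and length trend removed, its direction turned, with a log2 fold change of 0.06 (95% interval from -0.09 to 0.21).

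Vip, on chromosome 10 from 4698927 to 4707323, encodes vasoactive intestinal peptide, made by interneurons that mostly inhibit other interneurons. It had 29.6 and 31.8 CPM in the FLOX+GCI libraries and 31.0 and 32.8 CPM in the FBN-ARO-KO+GCI libraries. The genotypes overlapped. Its log2 fold change was 0.05 (95% interval from -0.17 to 0.28, adjusted p = 0.797, edgeR quasi-likelihood), or between 0.887- and 1.21-fold.

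Pvalb, on chromosome 15 from 78021544 to 78036830, encodes parvalbumin, the calcium buffer of fast-spiking interneurons. It had 46.4 and 39.7 CPM in the FLOX+GCI libraries and 40.5 and 38.9 CPM in the FBN-ARO-KO+GCI libraries. FLOX+GCI replicate 1 stood above the other 3 libraries, and FLOX+GCI replicate 2 lay between the FBN-ARO-KO+GCI libraries. Its log2 fold change was -0.12 (95% interval from -0.36 to 0.12, adjusted p = 0.578, edgeR quasi-likelihood), and 0.0024 without FLOX+GCI replicate 1.

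Calb2, on chromosome 8 from 112661402 to 112692110, encodes calretinin, which marks interneuron-selective interneurons and, in the mouse, mossy cells. It had 49.9 and 45.4 CPM in the FLOX+GCI libraries and 47.2 and 47.4 CPM in the FBN-ARO-KO+GCI libraries, which both lay between the FLOX+GCI libraries. The log2 fold change was -0.0094 (95% interval from -0.21 to 0.20, adjusted p = 0.965, edgeR quasi-likelihood). Calb2 and Npy have nearly the same transcript GC content (53.5% and 53.7%) but differ in length (1430 and 566 bases). The fitted trend between genotypes was -0.13 for Calb2 and -0.18 for Npy. With it removed, their log2 fold changes were 0.12 and -0.32. The source of this difference was not tested.

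Reln, on chromosome 5 from 21390272 to 21850523, encodes reelin, which is secreted by Cajal-Retzius cells and by interneurons. It had 61.4 and 69.7 CPM in the FLOX+GCI libraries and 62.8 and 68.7 CPM in the FBN-ARO-KO+GCI libraries, which again both lay between the FLOX+GCI libraries. The log2 fold change was 0.0035 (95% interval from -0.22 to 0.23, adjusted p = 0.988 by edgeR). Gm10475 overlaps 246 bases of the Reln exons on the opposite strand, so the strand limit given for Slc32a1 holds here too. Of the 5 markers of Cajal-Retzius cells, Ndnf, which some interneurons also express, had between 14.6 and 15.4 CPM and Trp73 between 2.51 and 3.85 CPM. Ebf3 had between 0.558 and 0.770 CPM, and Lhx1 and Lhx5 were at or below 0.203 CPM in every library.

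**Figure D2:**
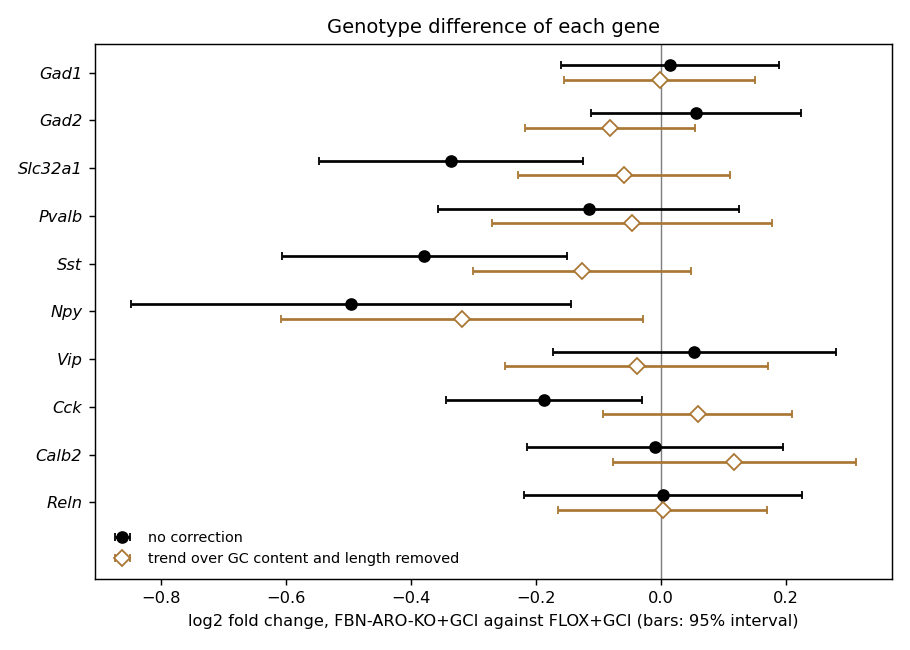
Log2 fold change of each gene in FBN-ARO-KO+GCI against FLOX+GCI, with 95% intervals from edgeR's quasi-likelihood fit, before (filled circles) and after (open diamonds) the GC and length trend of each library was removed. Before the correction the intervals of Slc32a1, Sst, Npy and Cck lie below 0, and after it only that of Npy does.

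To compare the markers with the amount of GABA machinery in the same library, each was set against the mean log2 CPM of Gad1, Gad2 and Slc32a1 of that library, so that the scaling between libraries drops out. This relative level of Sst was 1.23 and 1.19 in the FLOX+GCI libraries and 1.081 and 0.898 in the FBN-ARO-KO+GCI libraries. For Npy it was 0.319 and 0.397 in the FLOX+GCI libraries, against 0.312 and 0.226 with FBN-ARO-KO+GCI. Both were lower in FBN-ARO-KO+GCI without overlap, although for Npy the nearest libraries of the genotypes were close. The log2 differences between genotypes were -0.29 for Sst and -0.42 for Npy, and without FBN-ARO-KO+GCI replicate 2 they were -0.16 and -0.19. The relative level of Cck (1.21 and 1.26 against 1.18 and 1.13) was also lower without overlap. Vip (0.156 and 0.178 against 0.181 and 0.188) and Calb2 (0.264 and 0.254 against 0.276 and 0.271) were higher without overlap, with a log2 difference for Vip of 0.14 that was 0.05 without FLOX+GCI replicate 1 and 0.24 without FLOX+GCI replicate 2. Pvalb (0.245 and 0.222 against 0.237 and 0.223) and Reln (0.325 and 0.391 against 0.367 and 0.393) overlapped. The GC and length trend was not removed from these ratios. Its difference between genotypes was -0.26 for Sst, -0.25 for Cck, -0.18 for Npy and -0.13 for Calb2. It was -0.07 for Pvalb, 0.0015 for Reln and 0.09 for Vip. For the reference genes it was 0.02 for Gad1, 0.14 for Gad2 and -0.28 for Slc32a1. The part of the trend in the ratios was not tested. Slc32a1 is part of this reference and was itself lower, and the directions of Pvalb, Cck, Calb2 and Reln turned between Slc32a1 and Gad1 as the only reference. Against Slc32a1 alone the genotypes overlapped for Sst, with a log2 difference of -0.0482, and for Npy, with -0.18. Against Gad1 alone these were -0.40 and -0.52. The exact permutation p was 0.333 for each of the 5 ratios that did not overlap, the smallest this design allows, and 7 such ratios were compared. All 7 share the same reference, so they are not independent. By CPM, 51.8% of all genes tested did not overlap in either direction.

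**Figure D3:**
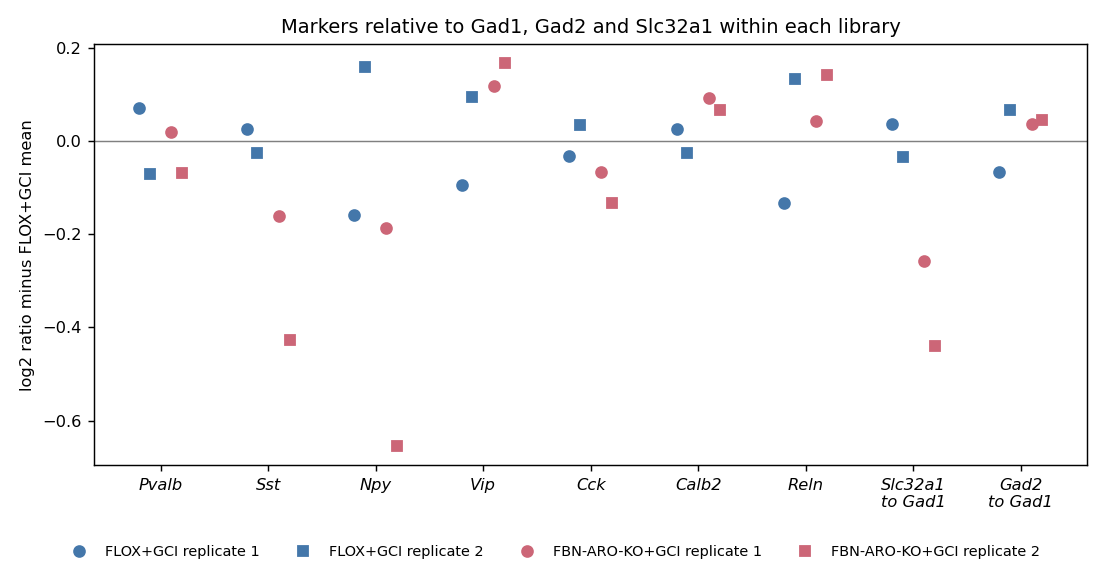
Log2 ratio of each marker to the mean of Gad1, Gad2 and Slc32a1 in the same library, and of Slc32a1 and Gad2 to Gad1, drawn as the difference from the FLOX+GCI mean (vertical axis, log2 units). Points are the 4 libraries, and Sst, Npy and the ratio of Slc32a1 to Gad1 reach furthest below 0, in FBN-ARO-KO+GCI replicate 2.

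The GC content of the transcript differed among the 10 genes, from 42.2% for Vip to 61.9% for Slc32a1. The richest in GC, Slc32a1 (61.9%), Cck (57.0%) and Sst (56.9%), had log2 fold changes between -0.38 and -0.19, while the poorest, Vip (42.2%) and Gad2 (44.1%), had 0.05 and 0.06. The genes between them did not follow GC content in order. Npy (53.7%) had the lowest log2 fold change of all, -0.50, next to Calb2 (53.5%) with -0.0094 and Reln (51.1%) with 0.0035, and Pvalb (49.3%) had -0.12. The trend fitted over all genes gave, at the GC content and length of each gene, a difference between genotypes of -0.28 for Slc32a1, -0.26 for Sst, -0.25 for Cck, -0.18 for Npy and 0.14 for Gad2 on the log2 scale. It was steepest in FBN-ARO-KO+GCI replicate 2, at -0.23 for Slc32a1 and -0.21 for Sst relative to the mean of all libraries, against -0.05 for each in FBN-ARO-KO+GCI replicate 1. FBN-ARO-KO+GCI replicate 2 was the lowest library for 5 of the 10 genes and the highest for 3. The matching shares over all genes were not computed, so these counts cannot be set against a background. With the trend removed, the log2 fold changes of the 10 genes lay between -0.32 and 0.12, and their median was -0.04 (0.03 for all genes). Of the 10, 1 had an unadjusted p under 0.05 by edgeR quasi-likelihood, against 11.4% of all genes tested.

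**Figure D4:**
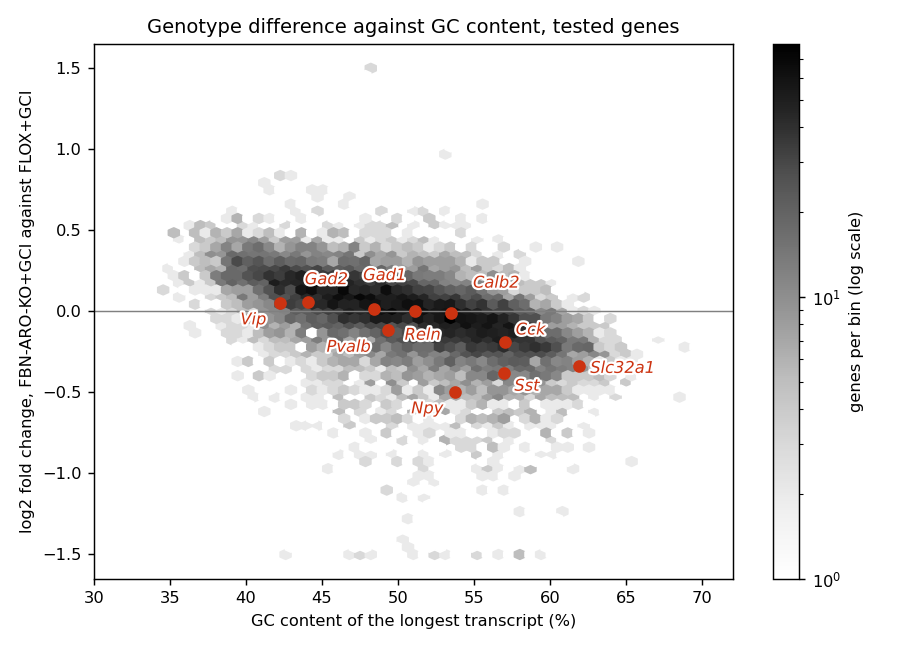
Log2 fold change in FBN-ARO-KO+GCI against FLOX+GCI (vertical axis, values beyond it drawn at its edge) against the GC content of the longest transcript in percent (horizontal axis), with the number of tested genes per bin in gray on a log scale and the 10 genes in red. The cloud of all genes slopes downward, with Slc32a1, Cck and Sst at its GC-rich side and Npy below the cloud's center at 53.7%.

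Genes that take up, break down and supply GABA or set the chloride gradient on which it acts had, as a list, a median log2 fold change of 0.09. All 15 passed the filter, and 0 passed an adjusted p of 0.05. An unadjusted p under 0.05 held for 3 (against 16.5% of all genes tested), each with the higher level in FBN-ARO-KO+GCI. These 3 were Slc38a2 (141 and 136 CPM in FLOX+GCI, 181 and 163 CPM in FBN-ARO-KO+GCI), a glutamine transporter, Glul (1407 and 1285 CPM, 1642 and 1583 CPM), the astrocytic glutamine synthetase, and Slc12a2 (58.4 and 54.8 CPM, 60.7 and 86.6 CPM), the chloride importer NKCC1. Their adjusted p was 0.238, 0.238 and 0.289 by edgeR quasi-likelihood, and DESeq2 put Slc38a2 (0.0413) and Glul (0.0406) under 0.05. For Slc12a2 the difference rested mainly on FBN-ARO-KO+GCI replicate 2, without which its log2 fold change was 0.10, against 0.38 with all libraries and 0.61 without FBN-ARO-KO+GCI replicate 1. With the GC and length trend removed, the log2 fold changes moved from 0.31 to 0.18 for Slc38a2, from 0.26 to 0.27 for Glul and from 0.38 to 0.23 for Slc12a2, and the median of the list was 0.11.

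Of 20 transcription factor genes of interneuron lineages, 19 passed the filter, and their median log2 fold change was 0.02. An unadjusted p under 0.05 held for 1 of them, Npas1, against 16.5% of all genes tested. Npas1, a repressor in interneurons of the ganglionic eminences, had 10.9 and 13.9 CPM in FLOX+GCI and 8.87 and 8.74 CPM in the FBN-ARO-KO+GCI libraries. Its log2 fold change was -0.49 (adjusted p = 0.248, edgeR quasi-likelihood), -0.18 with the GC and length trend removed and -0.32 without FLOX+GCI replicate 2. Next by p were Prox1, a factor of granule cells and some interneurons, at 0.19, and Dlx5, at -0.39, with adjusted p of 0.314 and 0.365 by edgeR. With the trend removed they were 0.21 and -0.24, and without FLOX+GCI replicate 1 that of Dlx5 was -0.22. Lhx6, which specifies the lineage of both somatostatin and parvalbumin cells, had 33.2 and 30.7 CPM in FLOX+GCI and 32.0 and 29.0 CPM in FBN-ARO-KO+GCI, so its genotypes overlapped. It was named after its values were seen.

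Of 33 further genes enriched in interneuron classes, none was lost to the filter, and the median log2 fold change was -0.07. At an unadjusted p under 0.05 there were 8 (against 16.5% of all genes tested), 3 higher and 5 lower. None passed an adjusted p of 0.05. The smallest p belonged to Calb1, the gene for calbindin, which granule cells and pyramidal cells also express. It had 127 and 133 CPM in FLOX+GCI and 190.0 and 184 CPM in the FBN-ARO-KO+GCI libraries, for a log2 fold change of 0.53 (adjusted p = 0.173, edgeR quasi-likelihood, and 1.18e-05 with DESeq2) that moved to 0.25 with the GC and length trend removed. Tacr1, the receptor for substance P, had 4.59 and 4.18 CPM in FLOX+GCI and 2.02 and 2.22 CPM in FBN-ARO-KO+GCI. Kit, a receptor tyrosine kinase, had 148 and 118 CPM against 88.9 and 93.5 CPM. With 1 library left out, log2 fold changes lay between 0.49 and 0.56 for Calb1, -1.12 and -0.98 for Tacr1, and -0.70 and -0.36 for Kit. The log2 fold changes of Tacr1 and Kit were -1.05 and -0.54 (adjusted p = 0.238 for each by edgeR) and stayed at -1.07 and -0.59 with the trend removed. The likelihood ratio test of edgeR gave an adjusted p of 0.0140 for Tacr1 and 0.00388 for Kit, and DESeq2 gave 0.00175 for Kit.

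Cort and Crhbp, both known from somatostatin interneurons, were named after their values were seen. Cort, the gene for cortistatin, a peptide related to somatostatin, had 6.90 and 4.91 CPM in FLOX+GCI and 3.77 and 2.66 CPM in FBN-ARO-KO+GCI. Crhbp, which encodes a binding protein for corticotropin-releasing hormone, had 46.8 and 44.5 CPM in FLOX+GCI and 36.8 and 35.6 CPM in FBN-ARO-KO+GCI. Neither gene overlapped between genotypes, but 25.8% of all genes tested were likewise lower in FBN-ARO-KO+GCI without overlap. The log2 fold changes were -0.87 (95% interval from -1.48 to -0.27) for Cort and -0.33 (from -0.54 to -0.13) for Crhbp. Their adjusted p was 0.245 and 0.238 by edgeR quasi-likelihood. With the GC and length trend removed, these were -0.60 for Cort and -0.30 for Crhbp. Relative to Sst in the same library, Crhbp stood at 0.201 and 0.210 in FLOX+GCI and at 0.199 and 0.227 in FBN-ARO-KO+GCI, so this ratio overlapped. Cort relative to Sst stood at 0.0297 and 0.0232 in the FLOX+GCI libraries and was lower with FBN-ARO-KO+GCI, at 0.0204 and 0.0170, without overlap.

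The receptors on which these peptides and reelin act were measured in the same libraries. Of 17 genes for receptors of somatostatin, NPY, VIP and CCK and for reelin receptors and their adaptor, 15 passed the filter. Their median log2 fold change was -0.06, and 0 passed an adjusted p of 0.05. At an unadjusted p under 0.05, 1 was higher and 1 lower, against 16.5% of all genes tested. Npy2r, the presynaptic NPY receptor, had 63.8 and 74.7 CPM in FLOX+GCI and 95.3 and 102 CPM in FBN-ARO-KO+GCI. This was a log2 fold change of 0.51 (adjusted p = 0.238, edgeR quasi-likelihood, 0.00210 with DESeq2), opposite in sign to that of Npy, and 0.38 with the GC and length trend removed. With 1 library left out, the log2 fold change of Npy2r lay between 0.41 and 0.63. Sstr2, a somatostatin receptor, had 9.18 and 12 CPM in FLOX+GCI and 8.35 and 7.51 CPM in the FBN-ARO-KO+GCI libraries, for a log2 fold change of -0.42 (adjusted p = 0.295 by edgeR) that was -0.31 with the trend removed and -0.21 without FLOX+GCI replicate 2. Cckbr, the brain receptor for cholecystokinin, had 10.8 and 10.6 CPM against 8.48 and 8.94 CPM (log2 fold change -0.30, or -0.15 with the trend removed, adjusted p = 0.320 by edgeR). Npy6r had no count in any library.

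Of 11 genes for enzymes and carriers that cut and pack neuropeptides, none was lost to the filter. The median log2 fold change was 0.0002, with 2 genes at an unadjusted p under 0.05 (against 16.5% of all genes tested), both lower. Pcsk1n, which encodes the inhibitor of prohormone convertase 1, had 153 and 122 CPM in FLOX+GCI and 85.6 and 69.0 CPM in the FBN-ARO-KO+GCI libraries. Its log2 fold change was -0.83 (adjusted p = 0.238, edgeR quasi-likelihood, 2.11e-06 with DESeq2) and -0.64 with the GC and length trend removed. With 1 library left out, the log2 fold change of Pcsk1n lay between -0.997 and -0.654. The gene Eras overlaps 135 bases of the Pcsk1n exons on the opposite strand, so the strand limit given for Slc32a1 holds here too. Chga, for the granule protein chromogranin A, had 157 and 191 CPM in FLOX+GCI and 139 and 135 CPM in the FBN-ARO-KO+GCI libraries, for a log2 fold change of -0.34 that moved to -0.12 with the trend removed and to -0.20 without FLOX+GCI replicate 2. Without FLOX+GCI replicate 1 it was -0.48, and DESeq2 gave an adjusted p of 0.0408 with all libraries. Furin, a protease of the secretory pathway, came next (log2 fold change -0.25, adjusted p = 0.322 by edgeR). This was -0.08 with the trend removed, -0.12 without FLOX+GCI replicate 2 and -0.16 without FBN-ARO-KO+GCI replicate 2.

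**Figure D5:**
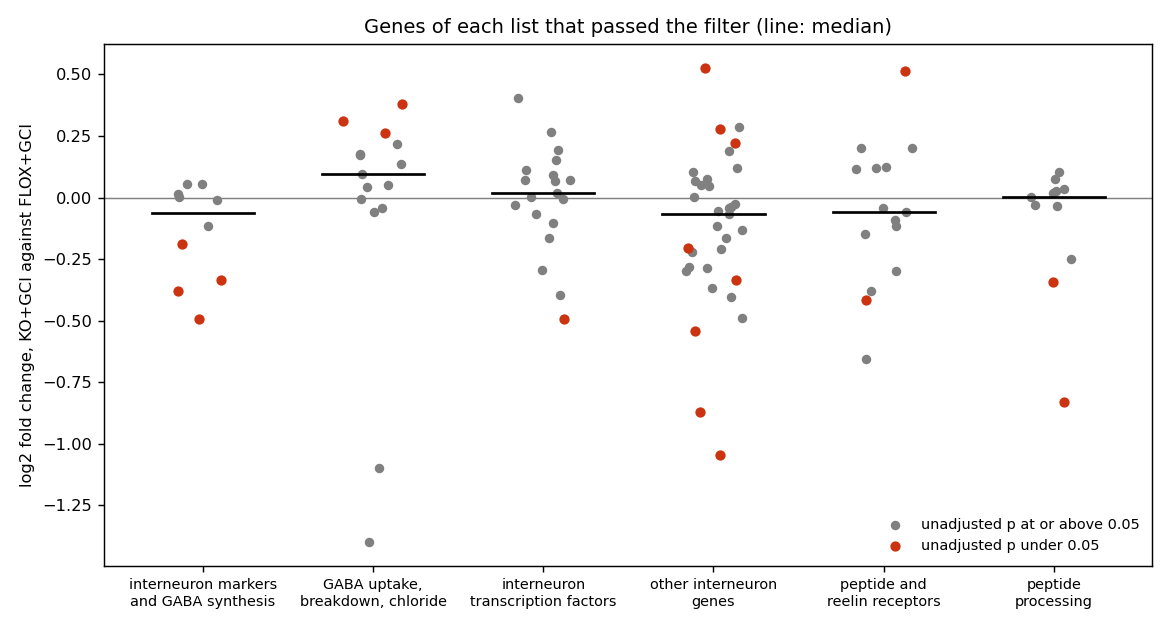
Log2 fold change in FBN-ARO-KO+GCI against FLOX+GCI of the tested genes of each list, with red points for an unadjusted p under 0.05 and a black line at the median of the list. The medians lie between -0.07 and 0.09, and in each list most genes are gray.

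Markers of other cells were measured because the 10 genes share tissue with them and a dissection can include neighbors. Their counts at an unadjusted p under 0.05 stand beside 16.5% of all genes tested. Excitatory neuron markers (7 of 7 tested) had a median log2 fold change of -0.05 and a summed level between 8159 and 8485 CPM, with 1 lower at an unadjusted p under 0.05. Granule cell markers (7 of 7 tested) had a median of 0.26, with 4 higher and 1 lower, and a summed level of 593 and 569 CPM in FLOX+GCI and 688 and 717 CPM in FBN-ARO-KO+GCI. Mossy cell markers, which bear on Calb2, had between 10.8 and 13.8 CPM in sum and 0 of 3 under 0.05. Striatal neuron markers had a median of -0.39 (6 of 6 tested, 2 lower at an unadjusted p under 0.05). Their sum was 88.0 and 90.5 CPM in FLOX+GCI and 81.6 and 79.4 CPM in FBN-ARO-KO+GCI, and striatal neurons also express Gad1, Gad2 and Slc32a1. Most of this sum was Ppp1r1b, with 54.7 and 54.3 CPM in FLOX+GCI and 58.6 and 52.1 CPM in FBN-ARO-KO+GCI. Of the 6 striatal markers, 4 were lower without overlap, against 25.8% of all genes tested. Thalamus and habenula markers had a median of -0.08 (7 of 7 tested, 2 lower at an unadjusted p under 0.05). Their summed level was 104 CPM in FLOX+GCI replicate 2 and between 63.2 and 66.6 CPM in the other libraries. This excess lay in Slc17a6, with 64.2 CPM in FLOX+GCI replicate 2 and 25.2 CPM in replicate 1. In FBN-ARO-KO+GCI, Slc17a6 had 22.3 and 25.3 CPM. Endothelial markers (5 of 5 tested) had a median of -0.42 and a summed level between 102 and 187 CPM. The medians of the other lists were 0.01 for CA1 and CA3 pyramidal cells, 0.04 for Cajal-Retzius cells, 0.06 for astrocytes, 0.0094 for microglia, 0.08 for oligodendrocytes and 0.09 for choroid plexus. With the GC and length trend removed, the median turned to 0.07 for excitatory neurons and to -0.05 for astrocytes, and was 0.15 for granule cells, 0.13 for pyramidal cells, 0.12 for microglia, -0.29 for striatal neurons, -0.11 for thalamus and habenula and -0.26 for endothelial cells. The endothelial median was -0.0099 without FLOX+GCI replicate 1 and -0.11 without FBN-ARO-KO+GCI replicate 2, and -0.72 and -0.82 without the other library of each genotype. With 1 library left out, the medians of excitatory neurons, pyramidal cells, Cajal-Retzius cells (-0.16 to 0.30), microglia, choroid plexus (-0.35 to 0.26), and thalamus and habenula took both signs. The part of these markers in the values of the 10 genes was not tested.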

How the data were processed

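RNA-Seq of total hippocampal RNA gave 1 file per library. Per the labels, single-end reads of 50 nt were aligned by the authors to mm9, with TopHat2 (2.0.8b) named in the submitters' processing notes, and unnormalized counts per symbol were made with HTSeq and deposited. The HTSeq version, its strand setting and its annotation are not given in the sources used here. Groups and replicate numbers came from the sample titles. Counters of reads on no gene (no feature and ambiguous, 12.7% to 14.2% of uniquely aligned reads, and those not uniquely aligned) were left out. The members and lists were chosen with earlier results of these data known.

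From the counts, edgeR 4.0.16 (R 4.3.3) with TMM, filterByExpr (minimum count 10) and the quasi-likelihood test with Benjamini-Hochberg adjustment over all genes compared genotypes. Standard errors came from the log2 fold change and its F statistic, and 95% intervals used the fit's degrees of freedom. Positions, lengths and GC content came from GENCODE M1 (NCBIM37, the same assembly as mm9). Of the 22609 symbols, 20245 had a coding transcript. Ndnf and Lamp5 were matched by older symbols. Alternatives were DESeq2 1.42.0, the likelihood ratio test, other size factors and filters, the replicate number as a block, each library left out, and an offset that removes each library's natural-spline trend (5 degrees of freedom) over GC content and length. Genes named from each pathway list were the 3 with the smallest unadjusted p and a mean of at least 10 counts, other choices being stated.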

Additional observations from a re-analysis of the deposited data

How the results depend on the processing

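The count of genes with an adjusted p under 0.05 was 2, and became 285 with DESeq2, 294 with the likelihood ratio test, 5 with every gene of at least 1 count, 184 with the replicate block, 1 when a correction for GC content and length was added to it, and between 0 and 193 with 1 library left out. Of the 10 members, 0 passed, against 2 with DESeq2 and 1 with the likelihood ratio test. At an unadjusted p under 0.05 there were 4 members, 1 with the correction, alone or with the block, and between 2 and 4 with 1 library left out. The replicate numbers are not stated to pair libraries (correlation of the differences between replicates 1 and 2 across genotypes, 0.129), and with the block alone 0 members passed the adjusted threshold (0.0556 for Sst, 0.0773 for Npy) and 3 the unadjusted one, as Cck moved from p = 0.0254 to 0.0590 by edgeR. Among the other named genes, the block put Calb1 (0.0112), Tacr1 (0.0490), Kit (0.0235), Npy2r (0.0171) and Pcsk1n (0.000409) under an adjusted p of 0.05.

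The median log2 fold change of the members was -0.06, -0.10 with library totals only, and between -0.14 and -0.0406 with 1 library left out. For the receptors it was -0.10 with library totals only. For the peptide processing genes it was -0.0381 with the correction, -0.0372 with correction plus block and -0.0356 with library totals only. These medians, with 1 library left out, lay between 0.02 and 0.18 for GABA handling, -0.0459 and 0.11 for transcription factors, -0.11 and -0.0779 for other interneuron genes, -0.0906 and -0.0087 for receptors and -0.0194 and 0.0053 for peptide processing.

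Directions turned for members near 0 and for Cck. With the correction, alone and with the block, the log2 fold change was -0.0015 and -0.0014 for Gad1, -0.0812 and -0.0809 for Gad2, -0.0384 and -0.0369 for Vip, 0.0593 and 0.0585 for Cck, and 0.1177 and 0.1188 for Calb2. With library totals only it was -0.0216 for Gad1 and -0.0331 for Reln, and with a mean of at least 50 counts -0.0021 for Reln. With 1 library left out it spanned -0.0397 to 0.0692 for Gad1, -0.23 to 0.0024 for Pvalb, -0.0790 to 0.0618 for Calb2 and -0.0837 to 0.0945 for Reln.

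The difference of each ratio to the GABA genes, with Slc32a1 alone as reference, was 0.22 for Pvalb, -0.0482 for Sst, 0.39 for Vip, 0.15 for Cck, 0.33 for Calb2 and 0.34 for Reln. With Gad1 alone it was -0.13 for Pvalb, 0.0393 for Vip, -0.20 for Cck and -0.0228 for Calb2. With 1 library left out, the differences to the mean of the GABA genes spanned -0.43 to -0.16 for Sst, -0.65 to -0.19 for Npy, 0.0467 to 0.24 for Vip, -0.0941 to 0.0462 for Pvalb and -0.0406 to 0.23 for Reln.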
